A study of Homo sapiens with 8 samples.

Results

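Chromatin accessibility was described at 10 genes of the endothelial and blood lineages, KDR, ETV2, TAL1, LMO2, PECAM1, CDH5, TEK, ERG, FLI1 and RUNX1, during cardiac differentiation of human embryonic stem cells. The members are all ATAC-seq peaks that overlap the GENCODE span of one of these genes or the 20 kb on either side of it. Peaks of the 8 libraries that overlap each other were merged into regions, which gave 264 member regions of 285909 in the whole genome. RUNX1 holds 109 of the 264, ERG 37, FLI1 34, PECAM1 19, TEK 17, CDH5 12, TAL1 11, KDR 10, LMO2 10 and ETV2 5. The RUNX1 share goes with its annotated span of 1216.9 kb, most of which lies upstream of the start of its canonical transcript.

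In ATAC-seq, a transposase cuts and tags DNA that is not covered by nucleosomes, so that a pile of reads marks an accessible site. Every library came from the established embryonic stem cell line RUES2, without a genetic change or a sort named for them, taken before differentiation (hESC, day 0), as mesoderm (MES, day 2), as cardiac progenitors (CP, day 5) and as cardiomyocytes (CM, day 14), with 2 replicates per stage. All stages after hESC had been exposed to the Wnt activator CHIR-99021, which was also given at a lower dose on the day before the hESC cells were taken. CP and CM had in addition been exposed to the Wnt inhibitor Xav-939 from day 3, and CM were kept in B27 medium at the end. The protocol is directed to cardiomyocytes, and no endothelial or blood cells were purified.

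KDR encodes the main receptor for VEGF and is carried by mesodermal cells from which vessels, blood and heart muscle arise. The ETS factor ETV2 starts the endothelial and blood programme, and the related factors ERG and FLI1 maintain it. TAL1 binds DNA at E-boxes, LMO2 bridges it to GATA factors, and RUNX1 is needed for blood stem cells to emerge from endothelium. TEK is the receptor for angiopoietins, and PECAM1 and CDH5 are adhesion proteins at the junctions of endothelial cells.

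The peak lists hold between 55873 (CM replicate 2) and 156282 (MES replicate 2) peaks. Replicate 2 has the longer list in hESC, MES and CP and the shorter list in CM. The lists give no number of reads, and they report for each peak its fold over the local background, the value used below. Among stage markers, MYH6 had a start-site peak in both CM libraries (fold 4.28 and 5.19) and in CP replicate 2 only (4.18), and DPPA4 had one in every library except both CM libraries. TDGF1 too had one in every library except both CM libraries, and LIN28B had one in hESC, MES and CP replicate 1 only. TBX5, listed as a progenitor marker, had one in both CM libraries only (2.68 and 3.34), and MYL7 in every library except both hESC libraries. Several others did not follow the stages. TNNT2, ACTN2, RYR2, ZFP42, HAND1, ISL1 and all 5 mesoderm markers had a start-site peak in all 8 libraries. MYH7 and POU5F1 had none in any library. GATA4 had one in every library except hESC replicate 1, PDGFRA in CM replicate 2 only and NPPA in CM replicate 1 only. No progenitor marker had a start-site peak in CP alone. Of 6 endothelial markers, 2 to 5 had a start-site peak per library. Their summed fold was 15.2 and 16.1 at hESC, 19.6 and 13 at MES, 12.1 and 14.8 at CP, and 9.64 and 7.41 at CM. PECAM1, CDH5 and TEK among these markers are also members, so the sum is not independent of the genes described here. Of the blood markers, PTPRC and ITGA2B had none in any list, and SPI1 had a weak one in 3 libraries (2.76 to 3.20). A bulk library cannot tell fewer cells with an open site from a lower accessibility per cell, and the part of list length and of other cell types in the values below was not tested.

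The regions on which the results turn are shown as the 200 bp around the summit of the highest peak, on the plus strand of GRCh38. They were chosen because they are the called regions that moved most at their gene. Both LMO2 regions, KDR −7.4 kb and RUNX1 −704.2 kb are described below without a test. Capitals mark the motifs described further below, an ETS core (GGAAGT or its complement ACTTCC) and an E-box (CAGATG or its complement CATCTG). The sequences without capitals hold none of the motifs searched.
KDR -7.4 kb, chr4:55132872-55133071: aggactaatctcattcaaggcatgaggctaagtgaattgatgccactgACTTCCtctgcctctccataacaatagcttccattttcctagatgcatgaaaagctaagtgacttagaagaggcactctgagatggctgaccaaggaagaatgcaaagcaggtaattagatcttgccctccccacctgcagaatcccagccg
TEK +56.6 kb, chr9:27165746-27165945: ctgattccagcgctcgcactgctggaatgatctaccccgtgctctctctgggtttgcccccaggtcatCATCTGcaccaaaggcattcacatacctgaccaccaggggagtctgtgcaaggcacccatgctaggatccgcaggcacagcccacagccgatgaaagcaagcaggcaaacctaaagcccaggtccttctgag
FLI1 +90.6 kb, chr11:128784548-128784747: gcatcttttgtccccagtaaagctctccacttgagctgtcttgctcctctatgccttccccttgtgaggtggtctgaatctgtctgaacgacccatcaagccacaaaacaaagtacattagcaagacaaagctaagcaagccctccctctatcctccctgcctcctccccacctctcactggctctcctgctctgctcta
PECAM1 +53.6 kb, chr17:64337121-64337320: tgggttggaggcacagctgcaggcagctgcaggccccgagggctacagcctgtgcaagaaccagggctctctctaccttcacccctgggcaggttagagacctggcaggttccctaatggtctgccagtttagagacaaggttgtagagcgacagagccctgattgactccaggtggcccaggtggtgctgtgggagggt
LMO2 -12.3 kb, chr11:33904260-33904459: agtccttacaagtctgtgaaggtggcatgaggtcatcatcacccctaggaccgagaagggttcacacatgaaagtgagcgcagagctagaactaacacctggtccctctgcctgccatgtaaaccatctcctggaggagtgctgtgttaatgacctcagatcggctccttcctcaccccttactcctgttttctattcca
LMO2 -14.9 kb, chr11:33906904-33907103: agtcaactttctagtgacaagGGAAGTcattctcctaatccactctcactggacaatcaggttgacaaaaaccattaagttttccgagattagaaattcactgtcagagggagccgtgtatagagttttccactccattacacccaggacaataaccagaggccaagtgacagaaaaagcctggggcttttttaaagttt
RUNX1 -379.4 kb, chr21:35428575-35428774: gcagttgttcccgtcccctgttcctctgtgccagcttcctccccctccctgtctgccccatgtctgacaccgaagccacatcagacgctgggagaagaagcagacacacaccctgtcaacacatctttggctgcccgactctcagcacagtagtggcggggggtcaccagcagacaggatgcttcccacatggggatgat
RUNX1 -704.2 kb, chr21:35753382-35753581: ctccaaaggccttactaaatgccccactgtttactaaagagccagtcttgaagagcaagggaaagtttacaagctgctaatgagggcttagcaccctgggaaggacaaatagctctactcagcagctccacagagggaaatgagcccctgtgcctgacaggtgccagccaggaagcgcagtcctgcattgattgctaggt

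Distances in kb are counted from the start of the canonical transcript in the direction of transcription, so that a negative distance lies upstream. The regions shown for KDR and LMO2 are intergenic, and the others lie in introns, for both RUNX1 regions in introns of its longer annotated transcripts.

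At the start sites, KDR had the highest fold of the 10 genes in every library. Its peak, over the first coding exon, had a fold of 10.2 and 9.50 at hESC, 9.0 and 9.96 at MES, 9.31 and 10.8 at CP, and 10.1 and 10.9 at CM. The stages overlap, and none of the steps passed the test, with the largest difference between CP and CM (0.35 ± 0.06 on the log2 scale, SE, adjusted p = 0.0681, limma over all regions). TEK had a start-site peak in 7 libraries, of fold 5.78 and 6.16 at hESC, 4.62 and 4.25 at MES, 4.35 and 7.17 at CP, and 3.96 in CM replicate 2. Both CP libraries lie on different sides of the hESC values, and none of the TEK steps was called (adjusted p = 0.206, 0.509 and 0.471 in order).

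The remaining start sites were weak or without a peak. FLI1 had a peak 0.6 kb inside the gene in all 8 libraries, with folds of 2.93 to 3.91 that overlap between all stages. TAL1 had peaks of fold 2.63 to 3.25 in 5 libraries (hESC replicate 2, both MES and both CM). LMO2 had peaks in hESC replicate 2 (3.66) and CM replicate 1 (3.27), and PECAM1 in MES replicate 1 only (3.45). No list has a peak within 500 bp of the canonical start of ETV2, CDH5, ERG or RUNX1. Of the 6 member start regions, 5 were tested and 0 were called by limma in any step, with 1, 0 and 2 at an unadjusted p under 0.05 in the 3 steps. For TAL1, LMO2 and FLI1, most start values were set to the common floor described below, which limits what could be called there.

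**Figure D1:**
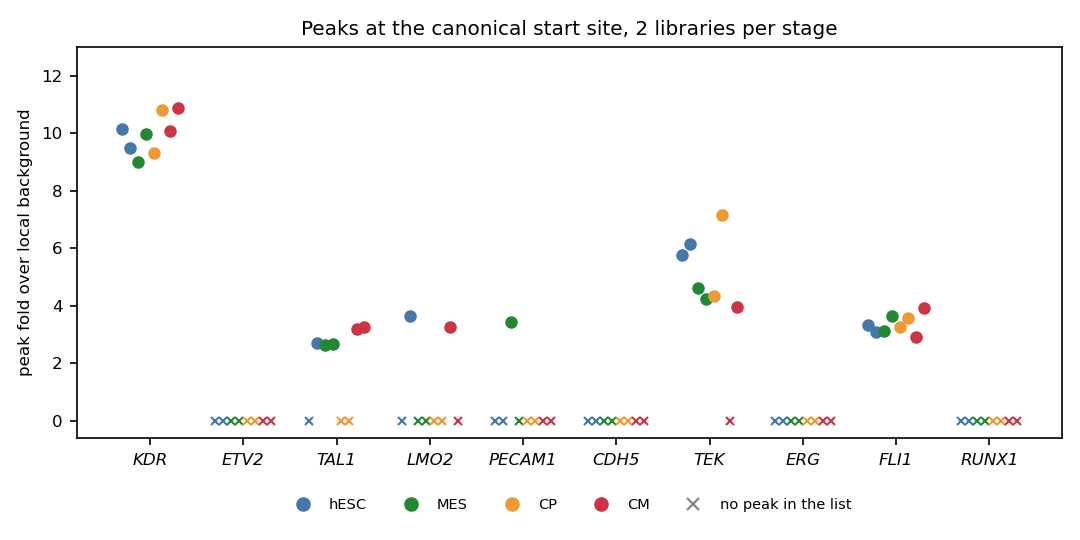
Fold of the peak at the canonical start site of each gene (vertical axis, fold over the local background) in each of the 8 libraries, coloured by stage, with a cross at 0 where the list holds no peak. KDR lies between 9.0 and 10.9 in every library, TEK and FLI1 lie lower, and ETV2, CDH5, ERG and RUNX1 show crosses only.

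Other annotated starts carried peaks where the canonical ones did not. ETV2 has 2 regions inside its short gene, at +1.8 kb with folds of 2.68 to 3.75 and at +2.8 kb with folds of 4.11 to 6.25, both present in all 8 libraries and called in no step. ERG has an alternative start at +49.6 kb, in an intron of the longer transcripts, with folds of 5.55 to 11.6 in all 8 libraries. LMO2 has a second start at +22.3 kb with folds of 4.17 to 5.65 in all 8 libraries. RUNX1 has one at +160.5 kb over a coding exon, chr21:34888544-34890471, which was singled out after its values were seen. Its fold was 5.04 and 5.17 at hESC, 5.02 and 5.16 at MES, 5.97 and 7.89 at CP, and 6.35 and 7.16 at CM, so that both later stages lie above both earlier ones. The step from MES to CP was called (0.47 ± 0.05, adjusted p = 0.0121), but not with folds as deposited, with the test on regions of all 8 libraries only, with absent regions at a fold of 1, or on −log10 q.

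Across all member regions, the calls were about as frequent as in the genome. A region was tested where at least 2 libraries have a peak, which 155 of the 264 member regions and 169532 of all regions did. Where a list has no peak, or a lower one, the value was set to a common floor, which equals a fold of 2.93 (CM replicate 1) to 4.12 (CP replicate 2). The floor understates the differences of such regions, and it makes their SE small, because filled-in libraries do not vary. With the floor, the median difference was 0 in every step, in the members and in all regions.

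From hESC to MES, 8 member regions rose (5.16%), beside 5.40% of all regions, and 9 fell (5.81%), beside 5.90%. From MES to CP, 2 rose (1.29%), beside 1.16%, and 8 fell (5.16%), beside 4.92%. From CP to CM, 5 rose (3.23%), beside 2.02%, and 2 fell (1.29%), beside 1.73%. All of these are limma calls at an adjusted p under 0.05. In total, 25 member regions were called in some step, 13 of them in RUNX1, 3 in ERG, 2 each in LMO2, TEK and FLI1, 1 each in KDR, ETV2 and PECAM1, and 0 in TAL1 and CDH5. At an unadjusted p under 0.05, 11 member regions (7.10%, beside 9.82% of all regions) were higher and 15 (9.68%, beside 11.1%) lower from hESC to MES. From MES to CP these were 5 (3.23%, beside 4.34%) and 12 (7.74%, beside 12.0%), and from CP to CM 12 (7.74%, beside 6.02%) and 7 (4.52%, beside 7.79%).

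Some calls were set by the filter. A region listed in both libraries of 1 stage and in no other passed the filter through that stage alone, and its other 6 values are the same floor. Of the 25 called regions, 6 were of this kind, LMO2 −12.3 kb, ERG −145.2 kb and RUNX1 +229.1, +140.7, −378.3 and −862.7 kb. All 6 are in the counts above. Such regions were 37.5% of member rises and 22.2% of member falls from hESC to MES, beside 39.2% and 44.6% over all regions. From MES to CP these were 0% and 37.5%, beside 27.4% and 38.7%. From CP to CM they were 20% and 0%, beside 53.3% and 16%. LMO2 −14.9 kb is treated likewise, since its only peak outside CM lies under the floor. KDR −7.4 kb, ERG +8.5 kb and RUNX1 −704.2 kb had peaks in both libraries of 1 stage and in only 1 other library. They too passed the filter only through that stage and are treated likewise. Called regions of this wider kind were not counted, and the shares above leave them out. Where named below, these regions are given as a description, without a test.

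The calls depend on single libraries. Without CM replicate 2, the shortest list, 4 member regions fell from hESC to MES and 8 rose from CP to CM, and without CM replicate 1 the counts were also 4 and 8. Without MES replicate 1, 14 rose from hESC to MES and 16 fell from MES to CP. Without hESC replicate 1 or 2, 15 or 16 fell from hESC to MES and 0 fell from CP to CM. Without CP replicate 1, 7 rose from MES to CP and 6 fell from CP to CM, and without CP replicate 2 the counts were 6 and 7. With only the regions called in all 8 libraries, where no value is filled in, 0 of 16 member regions were called by limma in any step, with 2, 2 and 4 at an unadjusted p under 0.05. Of all 28115 such regions, 231, 106 and 434 were called in the 3 steps, and 2400 (8.54%), 2836 (10.1%) and 5276 (18.8%) were at an unadjusted p under 0.05. With each gene cut to its canonical transcript and 20 kb on either side, 101 member regions were tested, and 3 rose and 7 fell from hESC to MES.

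**Figure D2:**
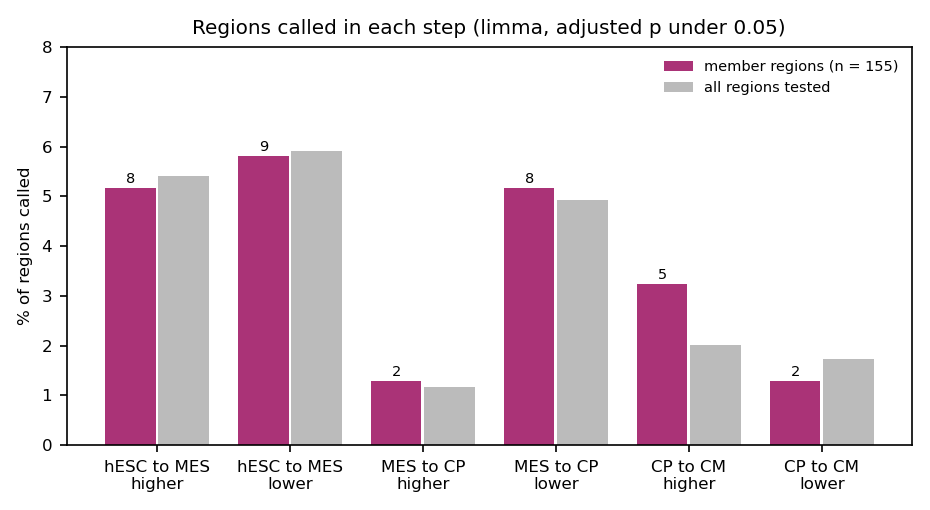
Share of regions called higher or lower in each step (vertical axis, percent of the regions tested) for the 155 member regions and for all 169532 regions, with the number of member regions above each bar. The members' bars stand close to those of all regions, with 8 higher and 9 lower from hESC to MES.

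The receptors KDR and TEK were called at regions away from their start sites. KDR lost a peak 7.4 kb upstream, in the intergenic region chr4:55132694-55133177. Its fold was 12.5 and 13.6 at hESC, above the start site itself, and 6.08 in MES replicate 2, with no peak in the other 5 libraries. Only 1 library outside hESC lists this region, so it passed the filter through hESC alone. Its difference from hESC to MES (−1.59 on the log2 scale, MES replicate 1 filled in) is given as a description, without a test. The call counted above was not made without hESC replicate 2, without either CM replicate or with absent regions at a fold of 1. A KDR intron region at +25.5 kb showed the opposite pattern, with peaks of fold 9.77 in CP replicate 2, 6.53 in CM replicate 1 and 4.25 in CM replicate 2 and none earlier, and it passed no test (adjusted p = 0.657 from MES to CP).

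In TEK, 2 intron regions fell at different steps. The region at +36.1 kb, chr9:27145042-27145500, had a fold of 5.26 and 6.38 at hESC, 7.22 and 8.33 at MES, 4.88 in CP replicate 2 and no peak in CP replicate 1 or CM. It was highest in both MES libraries and fell from MES to CP by 0.92 (SE 0.11, adjusted p = 0.0173). The call was not made without either MES replicate (0.0555 and 0.0742), without either CM replicate (0.0678 each), with folds not centred, with absent regions at a fold of 1 or with lists of equal length.

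The TEK region at +56.6 kb, chr9:27165503-27166188, remained open longer. Its fold was 7.98 and 8.25 at hESC, 8.41 and 8.92 at MES, 8.97 and 11.2 at CP, 3.77 in CM replicate 1, and no peak was listed in CM replicate 2. All 6 libraries before CM lie above CM, and the step from CP to CM was called (−1.27 ± 0.12, adjusted p = 0.0112). The call was not made without either hESC replicate (0.0598 each), without either MES replicate (0.0516 each) or with absent regions at a fold of 1. Another intron region, at +45.9 kb, had peaks in both CM libraries only (4.88 and 4.17).

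Among the ETS factors, FLI1 and ERG lost intron peaks that were present in hESC. The FLI1 region at +90.6 kb, chr11:128784280-128784922, had a fold of 8.50 and 8.76 at hESC, 3.73 and 4.95 at MES, and no peak in CP or CM. Both hESC values lie far above both MES values, and the region fell from hESC to MES by 1.11 (SE 0.09, adjusted p = 0.00280), a call made under every alternative run for it. The FLI1 region at +39.8 kb, chr11:128733647-128734129, went down in steps, with 10.5 and 11.6 at hESC, 6.57 and 7.83 at MES, 4.94 and 5.66 at CP, and no peak in CM. No stage overlaps the next, and the region was called in each step (−0.73 ± 0.07, adjusted p = 0.00466; −0.40 ± 0.07, 0.0459; −0.53 ± 0.07, 0.0297).

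The last 2 calls at FLI1 +39.8 kb are less firm than the first. From MES to CP, the call was not made with any 1 of 7 libraries left out (all but CP replicate 1), with adjusted p between 0.0633 and 0.142. From CP to CM, it was not made with any 1 of 7 libraries left out (all but CP replicate 2), with adjusted p between 0.0622 and 0.100. Neither was called on −log10 q, with lists of equal length or with regions of at least 1 library, and the step from MES to CP was also not called with folds not centred or with absent regions at a fold of 1. The first step was not called with absent regions at a fold of 1 or with lists of equal length. A FLI1 region downstream of the gene, at +121.4 kb, was in contrast present in all 8 libraries with folds of 6.09 to 11.3 and was called in no step.

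ERG has neighbouring intron regions that moved in opposite directions. The region at +8.5 kb, chr21:38489664-38490151, had a fold of 6.47 and 6.51 at hESC, 4.26 in MES replicate 2 and no other peak. Only 1 library outside hESC lists this region, so it passed the filter through hESC alone. Its difference from hESC to MES (−0.83 on the log2 scale, MES replicate 1 filled in) is given as a description, without a test. The next region, at +7.8 kb, chr21:38490434-38490948, had 2.92 and 3.45 at hESC, both set to the floor, 5.23 and 6.35 at MES, and 3.23 in CM replicate 1. It rose from hESC to MES (0.61 ± 0.07, adjusted p = 0.00736) and fell from MES to CP (−0.61 ± 0.07, 0.0124). With absent regions at a fold of 1, neither call at +7.8 kb was made, nor the call at +8.5 kb that is counted above. The fall at +7.8 kb was also not called without CP replicate 2.

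Another ERG region, at −145.2 kb, chr21:38643330-38643952, had peaks of fold 5.11 and 6.41 in both hESC libraries and in no other. It entered the test through hESC alone, and is given without a test. ERG at +73.9 kb had peaks in CP replicate 2 (7.69) and both CM libraries (4.39 and 4.36) and was not called.

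In the ETV2 window, the call did not fall on ETV2. The region at +6.5 kb, chr19:35648048-35648430, lies at the start of the neighbouring gene COX6B1, a subunit of cytochrome c oxidase. Its fold was 4.72 and 4.47 at hESC, 4.27 and 4.36 at MES, 3.99 and 5.09 at CP, and 4.69 and 4.83 at CM, so that the uncentred values of CP and CM overlap. The step from CP to CM was called (0.37 ± 0.06, adjusted p = 0.0423) and was kept under 4 of 18 alternatives. With any 1 of the 8 libraries left out, the adjusted p was 0.0638 to 0.134. The highest region of the window, with folds of 8.98 to 12.3 in all 8 libraries, is the start of RBM42, another neighbour.

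LMO2 had called regions in the intergenic sequence upstream of the gene. The region at −12.3 kb, chr11:33904199-33904501, had peaks in both MES libraries only (5.20 and 5.75). It entered the test through MES alone, so its difference from the stages before and after is given without a test. The region at −14.9 kb, chr11:33906638-33907196, had 3.92 in CP replicate 2, which is under that library's floor, and 5.03 and 5.37 at CM. All its values outside CM were therefore the same floor in the test, as in the regions that passed the filter through 1 stage. Its rise from CP to CM (0.79 on the log2 scale) is given as a description, without a test. The call counted above was not made with folds as deposited or with absent regions at a fold of 1.

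TAL1 had 9 tested regions, of which limma called 0, with 1, 0 and 1 at an unadjusted p under 0.05 in the 3 steps. Its region of highest mean fold with absent libraries counted, intergenic at +23.6 kb, had 6.95 and 4.98 at hESC, 4.06 and 4.13 at MES, 3.09 and 3.18 at CP, and no peak in CM. The stages do not overlap, but the first step missed the threshold (−0.63, adjusted p = 0.109). In the coding exon at +6.7 kb, TAL1 had folds of 2.50 to 3.89 in every library except CM replicate 2. At +20.1, +7.4 and +1.1 kb, every fold lay under the floor, so the test could not call these regions.

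**Figure D3:**
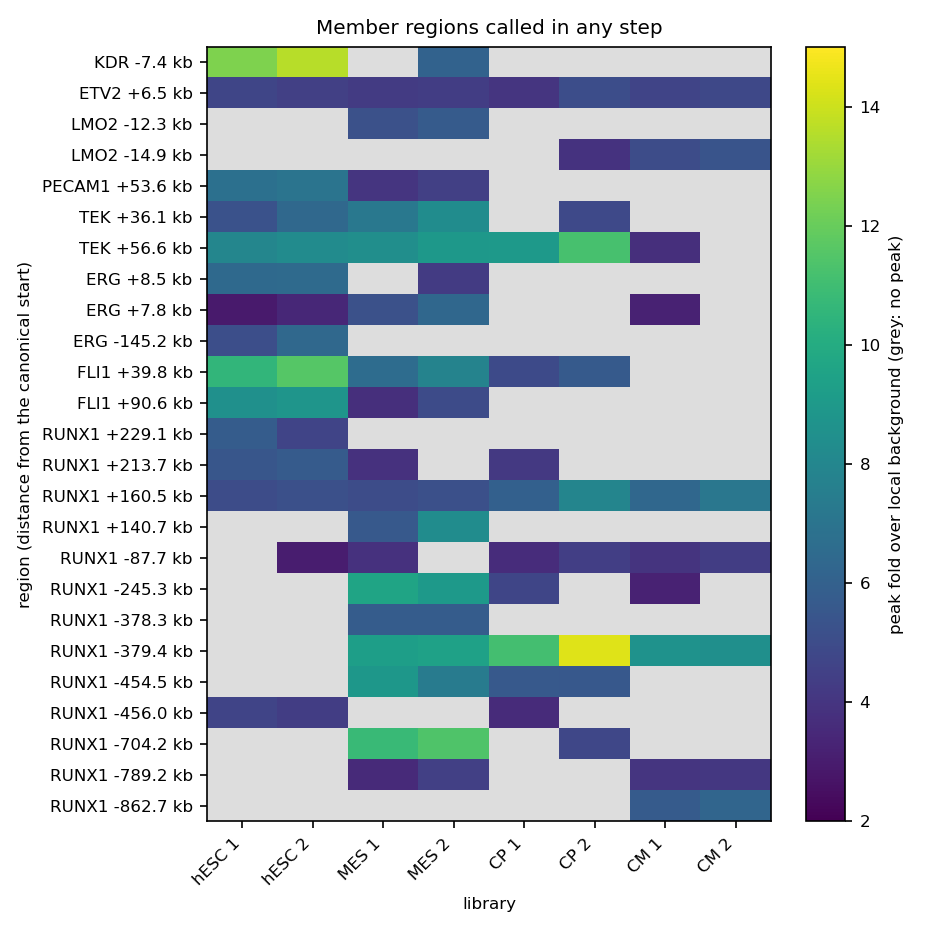
Fold over the local background (colour scale) of the 25 member regions called in any step, by region (rows, with the distance from the canonical start) and library (columns), with grey where the list holds no peak. Regions of KDR, PECAM1, ERG and FLI1 are filled on the hESC side, RUNX1 regions such as −704.2 kb begin in MES, and LMO2 −14.9 kb lies on the CM side.

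Of 61 tested RUNX1 regions, 6 rose and 3 fell from hESC to MES (beside 5.40% and 5.90% of all regions), 2 rose and 3 fell from MES to CP (beside 1.16% and 4.92%), and 3 rose and 0 fell from CP to CM (beside 2.02% and 1.73%). Gains were thus most frequent in the first step, as over all regions, and a difference from other genes was not tested. The region at −704.2 kb, chr21:35753303-35753741, had a fold of 10.8 and 11.4 at MES, 4.75 in CP replicate 2 and no other peak. Only 1 library outside MES lists this region, so it passed the filter through MES alone. Its differences (1.56 from hESC to MES and −1.46 from MES to CP, log2) are given as a description, without a test. The calls counted above include both, and the fall was not called with absent regions at a fold of 1.

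The RUNX1 region at −379.4 kb, chr21:35428470-35428960, stayed open once gained. It had no peak in hESC, 9.27 and 9.46 at MES, 11.1 and 14.4 at CP, and 8.62 and 8.48 at CM. The highest 2 values are those of CP. It rose from hESC to MES (1.31 ± 0.05, adjusted p = 0.000321, under every alternative run) and again from MES to CP (0.47 ± 0.05, 0.0117). The second rise was not called without CP replicate 2 (0.0503), with folds as deposited or with absent regions at a fold of 1. A neighbouring region, at −378.3 kb, had peaks of 5.80 and 5.78 in both MES libraries only.

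A pair of further RUNX1 regions rose at MES and had lower or no peaks later, with no later step called. The region at −454.5 kb, chr21:35503617-35504215, had 8.91 and 7.39 at MES, 5.62 and 5.56 at CP, and no peak in hESC or CM (hESC to MES 1.11 ± 0.18, adjusted p = 0.0222). The region at −245.3 kb, chr21:35294263-35295080, had 9.57 and 9.01 at MES, 4.70 in CP replicate 1 and 3.23 in CM replicate 1 (1.30 ± 0.19, adjusted p = 0.0177). In both, every MES value lies above every value of the other stages. The call at −454.5 kb was not made with lists of equal length or with any 1 of 5 libraries left out (all hESC and CM libraries and MES replicate 1, adjusted p 0.0575 to 0.0964). The call at −245.3 kb was not made with absent regions at a fold of 1 or with any 1 of 6 libraries left out (all of hESC, MES and CM, 0.0554 to 0.0842).

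Some RUNX1 regions had their highest peaks in CP or CM. At −862.7 kb, both CM libraries had a peak (5.74 and 6.22) and no other library did, so that it too entered the test through 1 stage. At −57.2 kb, the fold was 3.39 in MES replicate 1, 5.91 and 12.1 at CP, and 11.8 and 9.01 at CM, with no call (MES to CP 1.20 ± 0.27, adjusted p = 0.0934). At −883.0 kb, only CM had peaks (4.79 and 9.09). These regions were singled out after their values were seen. The region at −2.1 kb, the nearest to the canonical start among those of all 8 libraries, was in contrast highest in the early stages, with 8.68 and 10.5 at hESC, 8.28 and 10.9 at MES, 8.60 and 7.65 at CP, and 5.35 and 4.56 at CM, and it was not called in any step. Since 83 of the 109 RUNX1 regions, 9 of its 13 called ones among them, lie more than 20 kb outside the canonical transcript, most of these values rest on the longest annotated transcripts.

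**Figure D4:**
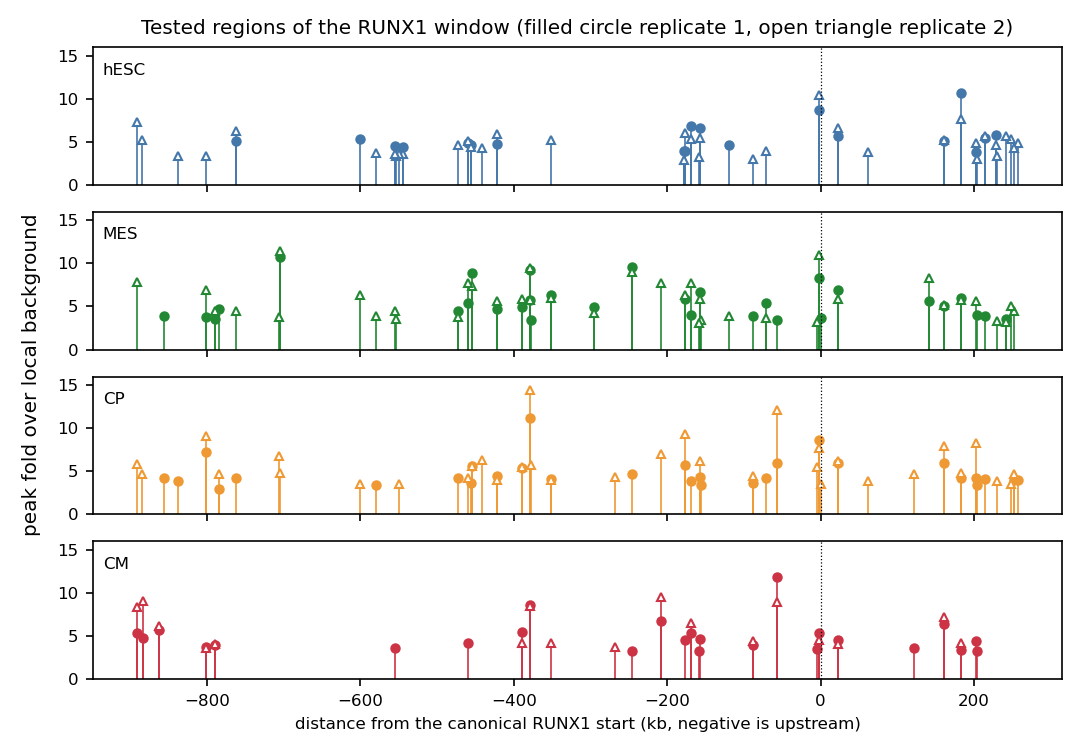
Fold over the local background (vertical axis) of the tested regions of RUNX1 against their distance from its canonical start (horizontal axis, kb), in a panel for each stage, with filled circles for replicate 1 and open triangles for replicate 2. At −704.2 kb both MES libraries stand at 10.8 and 11.4, and at −379.4 kb the points begin in MES and are highest in CP.

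The junction genes PECAM1 and CDH5 gave 1 called region between them. PECAM1 at +53.6 kb, an intron region at chr17:64337013-64337458, had a fold of 6.77 and 6.99 at hESC, 4.02 and 4.46 at MES, and no peak in CP or CM. It fell from hESC to MES by 0.81 (SE 0.02, adjusted p = 0.000107) and from MES to CP by 0.17 (SE 0.02, 0.0115). The first call was not made with absent regions at a fold of 1. The second was not made on −log10 q, with stricter peaks or with lists of equal length. PECAM1 also had a region over its last untranslated exon, at +69.7 kb, with folds of 4.22 to 8.13 in every library except CM replicate 2 and no call.

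CDH5 had 9 tested regions, of which limma called 0, with 0, 2 and 0 at an unadjusted p under 0.05 in the 3 steps. Its region of highest mean fold with absent libraries counted, intergenic at +40.0 kb, had 6.70 and 6.95 at hESC, 6.82 and 7.79 at MES, 4.77 and 4.75 at CP, and 3.92 and 4.05 at CM. The hESC and MES values lie above all CP and CM values, and the step from MES to CP missed the threshold (−0.58 ± 0.11, adjusted p = 0.0656). A nearby region at +42.1 kb, in an exon of the non-coding gene LINC00920, ran the other way, with no peak in hESC or MES, 4.92 and 9.46 at CP, and 8.27 and 6.58 at CM (MES to CP 0.89 ± 0.24, adjusted p = 0.138). Inside CDH5, each peak was listed in 2 libraries at most. At −5.5 and +1.7 kb, every fold lay under the floor, so the test could not call these CDH5 regions.

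Taken by their presence in the lists, the members were near the genome as well. Of the 264 regions, 109 (41.3%) were in 1 library only, beside 40.7% of all regions, and 16 (6.06%) were in all 8, beside 9.83%. Peaks in both hESC libraries and no CM library marked 33 regions (12.5%, beside 13.5%), 9 of them in FLI1, 7 in RUNX1 and 6 in ERG. Peaks in both CM libraries and no hESC library marked 13 regions (4.92%, beside 3.15%), 7 of them in RUNX1, 2 in KDR, 1 each in LMO2, CDH5, TEK and ERG, and none in PECAM1, FLI1, TAL1 or ETV2. The lists differ in length, and the member regions per library ran from 49 (CM replicate 2) to 142 (hESC replicate 2). By position, 185 of the 264 were intronic, 36 intergenic, 12 exonic, 25 at an annotated start other than the canonical start of a member, and 6 at such a start. In all 8 libraries were 8 of the 25, but 4 of the 185.

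Summed over the whole window of each gene, no step passed the test. The value was log2 of 1 plus the summed fold of all peaks in the window, over 19164 protein-coding genes. From hESC to MES, 0 of the 10 members were called, beside 0.0835% of all genes higher and 0.0835% lower. From MES to CP, 0 of 10 were called, beside 0.0313% higher and 0.0991% lower, and from CP to CM 0 of 10, beside 0.0522% higher and 0.501% lower. At an unadjusted p under 0.05, limma also gave 0 members in each step, which does not show that the sums were equal. Of all genes, 3.80% were higher and 2.65% lower at this p from hESC to MES, 2.24% and 4.35% from MES to CP, and 4.68% and 9.61% from CP to CM.

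The spread between replicates was wide in these sums. FLI1 had a summed fold of 83.7 and 101.8 at hESC, 53.3 and 75.1 at MES, 23.4 and 90.2 at CP, and 29.8 and 16.9 at CM. PECAM1 had 34.9 and 61.6, 30.1 and 49.2, 22.9 and 36.9, and 22.4 and 3.35 in the same order, and TAL1 16.3 and 28.1, 23.3 and 20, 6.47 and 19.8, and 5.69 and 6.64. In all 3, both CM sums lie below both hESC sums, in lists that are also shorter. The same held for ETV2, TEK and ERG, and not for KDR, LMO2, CDH5 or RUNX1. The share of all genes with this pattern was not counted. KDR had 25.8 and 40.4 at hESC and 27.9 and 32.6 at CM (CP to CM 0.63 ± 0.27 after centring, limma adjusted p = 0.356). The median difference of the members was −0.19, −0.0459 and −0.237 in the 3 steps, beside −0.0079, −0.0081 and −0.00914 over all genes. Without CM replicate 1, 1 member was called, PECAM1 from CP to CM (−2.27, adjusted p = 0.0136), which then rests on CM replicate 2 with its sum of 3.35. With lists of equal length, RUNX1 was called from hESC to MES (0.84, adjusted p = 0.047).

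**Figure D5:**
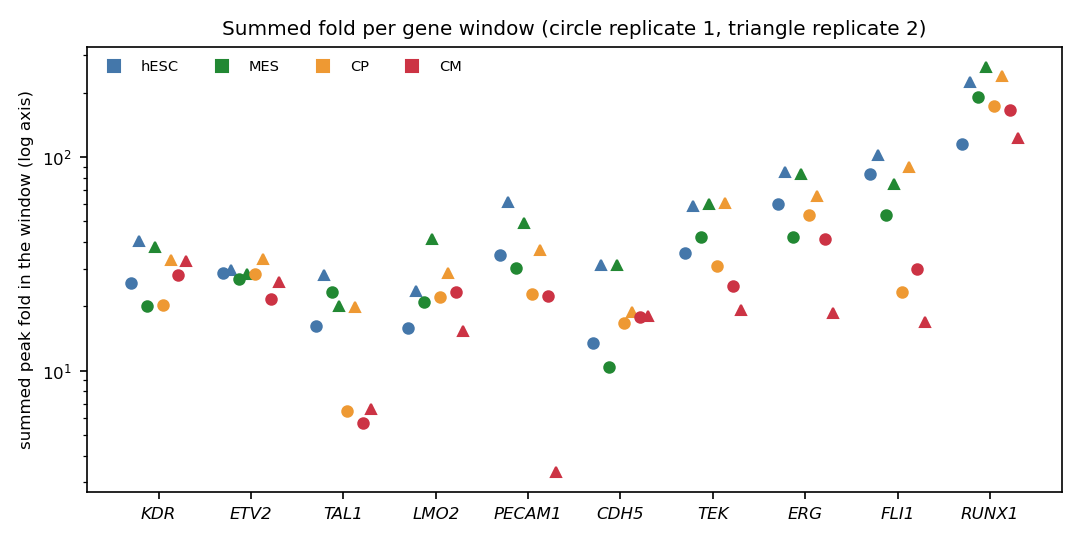
Summed fold of all peaks within each gene and 20 kb on either side (vertical axis, logarithmic) in each library, with circles for replicate 1, triangles for replicate 2 and colours for the stages. Replicates of a stage lie far apart for most genes, and PECAM1 in CM replicate 2 is the lowest point at 3.35.

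Further genes of both lineages gave like counts. Of 22 other endothelial genes, among them FLT1, TIE1, CLDN5 and VWF, 0 windows were called in any step, with 2 higher from hESC to MES (beside 3.80% of all genes) and 4 lower from CP to CM (beside 9.61%) at an unadjusted p under 0.05. Of their 256 tested regions, 13 rose (5.08%) and 8 fell (3.12%) from hESC to MES, 2 rose (0.781%) and 13 fell (5.08%) from MES to CP, and 3 rose and 3 fell (1.17% each) from CP to CM. Of 21 other genes listed for blood, among them SPI1, GFI1B, MYB, PTPRC, RUNX2, CBFB, LMO4 and LDB1, 0 windows were called. At an unadjusted limma p under 0.05, 3 were higher and 3 lower from CP to CM (beside 4.68% and 9.61% of all genes). From hESC to MES, 1 was higher at this p (beside 3.80%). These genes were not limited to those specific to blood. Of their 186 tested regions, 8 rose (4.30%) and 6 fell (3.23%), 2 rose (1.08%) and 4 fell (2.15%), and 4 rose (2.15%) and 5 fell (2.69%) in the same order of steps. These shares stand beside the same genome-wide shares as those of the members.

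Motifs of the factors themselves were about as common in the member regions as elsewhere. Searched on both strands in the 200 bp around each summit, the ETS core GGAAGT was in 20 of 155 tested member regions (12.9%, beside 14.6% of all tested regions) and the GATA motif AGATAA in 19 (12.3%, beside 11.4%). The E-box CAGATG was in 26 (16.8%, beside 15.4%) and the RUNX motif TGTGGTT in 9 (5.81%, beside 3.62%). None of these motifs holds another. Among the 25 called regions, 5 held the ETS core, in KDR, LMO2, ERG and RUNX1, 3 the E-box, 2 the GATA motif, both in RUNX1, and 1, in ERG, the RUNX motif. Among the 13 regions in both CM and no hESC library, 4 held the GATA motif, in KDR, CDH5 and RUNX1, and 4 the E-box. In the same 13, 2 held the ETS core and 0 the RUNX motif. For neither set was the share over all such regions of the genome counted, so a difference from other regions was not tested. A match of letters is a description of the sequence and not a bound site.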

How the data were processed

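ATAC-seq peaks of 8 RUES2 libraries, 4 stages with 2 replicates each, were used. The labels number the replicates without naming separate differentiations, so p-values measure the spread between these libraries, which may be technical. For each library on its own, the authors aligned reads (BWA-MEM 0.7.13, hg38), dropped those with a mapping quality of 30 or less and duplicates (Picard), and ran MACS2 2.1.0 (q-value 0.01, shift −100 bp, extension 200 bp). The deposited lists give for each peak a fold over local background, a ratio, and a −log10 q-value, both by the authors' peak caller. Reads, and so a count model, were not used here. A site missing from a list stayed under this q-value, so absence depends on depth.

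Chromosome names and ends of 23 chromosomes were compared with GRCh38, and 0 peaks lay past an end. Genes, spans and canonical starts come from GENCODE 44. Peaks on chromosomes 1 to 22 and X overlapping by 1 bp or more were merged. The highest log2 fold per library was centred on its median over the 28115 regions of all 8 libraries. Absent or lower values were set to a common floor, the highest of the libraries' 1st percentiles (−1.01 centred log2). Regions of at least 2 libraries and gene windows (log2 of 1 plus summed fold) were tested with limma 3.58.1 (R 4.3.3), 4 groups of 2, consecutive stages, two-sided, Benjamini-Hochberg over all regions or genes, threshold 0.05. The tests were tested on simulated data.

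Members, gene lists and motifs were chosen with earlier results of these data known. The named regions are each gene's start region and up to 4 called regions of largest difference, or, with none called, the region of highest mean fold. Regions named beyond this rule, at alternative starts, in neighbours or by presence in CM, were chosen after their values were seen. A blood marker fixed with the others is not reported here. Same-numbered replicates were not taken as pairs. Alternatives varied the centring, the floor, the filters, the measure, the list length, the region definition, the variance prior, the windows, the pseudocount (0.1 in place of 1), a replicate block and single libraries. Python 3.11.15, numpy 2.4.6, pandas 2.3.3 and matplotlib 3.10.9 were used.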

Additional observations from a re-analysis of the deposited data

How the results depend on the processing

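Counts of member regions are given in the order higher and lower from hESC to MES, higher and lower from MES to CP, higher and lower from CP to CM (8, 9, 2, 8, 5 and 2 as reported). Folds not centred gave 10, 8, 0, 10, 2 and 3, absent regions at a fold of 1 gave 11, 12, 2, 9, 4 and 9, and regions of at least 1 library gave 7, 6, 2, 6, 2 and 1. Only regions called in all libraries gave 0 in all 6. Lists of equal length gave 7, 7, 4, 6, 5 and 3. The −log10 q, a stricter −log10 q of at least 5, summit regions and another variance prior stayed within 1.5 times of every count. The canonical spans, chosen after seeing the data, gave 3, 7, 1, 6, 2 and 2. The replicate block gave 8, 7, 2, 6, 2 and 1. It also ended the named calls at FLI1 +39.8 kb from MES to CP (adjusted p = 0.106) and from CP to CM (0.0827) and at ETV2 +6.5 kb (0.0563). Deviations of same-numbered replicates correlated with r of 0.129 to 0.192 between hESC, MES and CP and −0.12 to 7.36e-05 with CM (28115 regions), so the numbers were not taken as pairs. Each library left out in turn gave 5 to 14, 4 to 16, 2 to 7, 5 to 16, 2 to 8, and 0 to 7. Gene windows gave 0 calls except 1 from hESC to MES with lists of equal length (RUNX1, adjusted p = 0.047), and 0 to 1 from CP to CM with a library left out. For the 24 named calls, 407 alternative values were computed, of which 316 stayed past the threshold, 91 did not and 0 reversed. These counts include LMO2 −12.3 kb (16 of 16 kept in both steps), ERG −145.2 kb (12 of 16) and LMO2 −14.9 kb (15 of 17). Their values outside 1 stage are all the floor, so their share of the kept values does not measure stability. The same limit holds for KDR −7.4 kb, ERG +8.5 kb and RUNX1 −704.2 kb, which passed the filter through 1 stage alone. The calls kept under all were, from hESC to MES, FLI1 +90.6 kb, RUNX1 −379.4 kb and RUNX1 −704.2 kb. Both calls of LMO2 −12.3 kb were also kept. RUNX1 −704.2 kb and LMO2 −12.3 kb passed the filter through MES alone, so this says nothing of their stability. List length and the q-value threshold limit what can be seen at weak sites, and the cause of the changes was not tested.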

Other observations

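Regions listed in 1 library only were not tested. They make up 109 member regions, of which 48 are in RUNX1, 21 in ERG, 13 in FLI1 and 10 in PECAM1. By library, 28 came from hESC replicate 2, 19 from CM replicate 1, 18 from CP replicate 2, 17 from MES replicate 2, 9 from CP replicate 1, 8 from CM replicate 2, 6 from MES replicate 1 and 4 from hESC replicate 1. CM replicate 2, the shortest list, held 7.34% of these member regions, beside 4.03% of all regions listed in 1 library, and hESC replicate 1 held 3.67%, beside 6.71%. Regions listed in both replicates of 1 stage and in no other library were 10 for hESC (3.79% of member regions, beside 3.01% of all), 5 for MES (1.89%, beside 2.76%), 3 for CM (1.14%, beside 1.05%) and 0 for CP (beside 0.729%).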
